A study of Mus musculus with 3 samples.

Results

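The genes described here are 10 transcripts that mark white blood cells of the myeloid lineage, out of 10698 genes that have a row of their own in the deposited table. Of these 10 genes, 7 are commonly used as monocyte and macrophage markers (Csf1r, Ctss, Lyz2, Mpeg1, Aif1, Adgre1 and Tyrobp) and 3 encode proteins of neutrophil granules (Ltf, Ngp and Prtn3). They were chosen by name, with their values in these samples known, so their levels and the difference between both classes are given as a description without a test. They are markers by reputation only. Log ratios carry no absolute level, so neither the cell type behind a transcript nor the labelled tissue could be checked from them.

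The study profiled whole-kidney RNA on 3 arrays with 2 colours each. There was 1 group of 3 BALB/c mice, called mice 11, 12 and 13 as in the labels, each injected 1 day earlier with anti-GBM antibody. Such antibody binds the basement membrane that filters blood in the kidney's capillary tufts, the glomeruli, and inflames them. Each mouse had its own array with its RNA in the red Cy5 channel, and the green Cy3 channel always carried the pooled RNA of 5 normal BALB/c mice. The age and sex of the mice, the antibody's source and any control injection are not stated in the labels. Every value is a log ratio on the deposited scale, whose base is not stated, and a positive value is read as higher in the anti-GBM kidney. This direction is likely, since red over green is the usual order, but it is not stated, and every sign below would turn if the ratio ran the other way. The pool is a single control sample and the dyes were never swapped, so the spread between control mice and any dye bias of a probe cannot be told apart from the anti-GBM effect. In whole-kidney RNA, a change in the number of cells of a type and a change in RNA per cell cannot be told apart either.

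Monocytes enter injured tissue from the blood and become macrophages, beside macrophages that reside in the kidney. Both depend on the receptor Csf1r, and the transcription factor PU.1 (gene Spi1) drives many of their genes. Neutrophils arrive early in antibody-mediated glomerulonephritis. They are filled in the bone marrow with granule proteins in sequence, the primary granule proteases such as Prtn3 at the promyelocyte stage and the secondary granule proteins Ltf and Ngp later, under C/EBP factors, chiefly C/EBP epsilon. Circulating neutrophils have largely stopped transcribing granule genes and hold abundant S100a8 and S100a9 transcripts instead.

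RefSeq promoter windows of the mouse assembly GRCm38.p6 were found for 7 of the 10 genes. Csf1r, Adgre1 and Tyrobp had none. The 250 bases before the start of each gene were searched on both strands for the letters GAGGAA, the core bound by PU.1, and TTNNGNAAT, a C/EBP pattern. The 5 windows with a match are shown because they come from both classes and from genes on both sides of 0. They are written 5′ to 3′ in the direction of the gene, with every match in capitals. A match on the opposite strand reads TTCCTC for PU.1.
Ctss (chr3:95526536-95526785, plus strand): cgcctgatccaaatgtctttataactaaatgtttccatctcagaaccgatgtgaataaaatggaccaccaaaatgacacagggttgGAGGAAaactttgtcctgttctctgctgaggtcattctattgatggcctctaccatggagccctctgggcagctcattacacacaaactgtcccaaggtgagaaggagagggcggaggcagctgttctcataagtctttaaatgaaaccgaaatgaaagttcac
Aif1 (chr17:35176053-35176302, minus strand): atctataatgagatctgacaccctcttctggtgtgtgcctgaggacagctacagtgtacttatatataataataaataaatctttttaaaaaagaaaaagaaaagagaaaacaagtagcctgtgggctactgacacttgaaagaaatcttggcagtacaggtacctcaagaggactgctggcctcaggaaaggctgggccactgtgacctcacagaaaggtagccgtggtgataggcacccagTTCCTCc
Prtn3 (chr10:79879417-79879666, plus strand): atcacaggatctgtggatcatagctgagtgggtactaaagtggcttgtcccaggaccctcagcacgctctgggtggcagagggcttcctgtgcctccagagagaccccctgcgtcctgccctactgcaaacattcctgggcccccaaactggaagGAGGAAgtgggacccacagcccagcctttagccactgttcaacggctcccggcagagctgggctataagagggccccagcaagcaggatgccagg
Ltf (chr9:111019042-111019291, plus strand): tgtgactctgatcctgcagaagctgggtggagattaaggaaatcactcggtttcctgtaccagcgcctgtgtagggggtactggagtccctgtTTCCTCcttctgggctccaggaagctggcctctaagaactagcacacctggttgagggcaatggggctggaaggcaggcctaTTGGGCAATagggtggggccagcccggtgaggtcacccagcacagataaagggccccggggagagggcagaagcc
Ngp (chr9:110419558-110419807, plus strand): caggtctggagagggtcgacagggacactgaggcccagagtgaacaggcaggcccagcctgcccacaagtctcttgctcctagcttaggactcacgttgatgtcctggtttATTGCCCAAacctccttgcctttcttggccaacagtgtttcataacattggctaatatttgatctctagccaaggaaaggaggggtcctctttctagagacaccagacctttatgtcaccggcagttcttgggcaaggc

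The PU.1 letters were present in 4 of the 7 windows, those of Ctss, Aif1, Prtn3 and Ltf, and in 23.3% of all 32851 promoter windows of this length. The match began 164 bases before the start in Ctss, 95 in Prtn3, 157 in Ltf and 7 in Aif1. The C/EBP pattern was present in 2 of the 7 windows and in 10.2% of all windows. Those 2 were the windows of Ltf and Ngp, and both carried the same 9 letters, TTGGGCAAT, on the plus strand 75 bases before the start of Ltf and on the opposite strand 139 bases before the start of Ngp. This word, looked up after the matches were seen, occurs in 43 of the 32851 windows (0.131%). The patterns do not overlap each other in the windows shown. Ltf and Ngp lie on chromosome 9 with their starts 599 kb apart. The windows of Lyz2 and Mpeg1 held neither pattern. These are letter matches and not binding sites.

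The table lists 15 rows for the 10 genes, and 13 of them had a value other than 0 in every mouse. An exact 0 was read as no estimate. All 10 genes had at least 1 fully measured row, against 7235 of the 10698 genes. Values are centred on each array's median and, where a gene had 2 full rows (Ctss, Aif1 and Tyrobp), averaged over them. Errors are SDs over n = 3 mice.

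The 10 genes did not share a direction. Of them, 6 were above 0 in every mouse, 3 were below 0 in every mouse, and Adgre1 was mixed. Among all 7235 genes, 27.8% were above 0 and 28.7% below 0 in every mouse. In a fit over all genes (limma, Benjamini-Hochberg adjusted p under 0.05), 5 members passed as higher and 3 as lower. The background was 9.48% of genes higher and 9.97% lower, together 19.4%. Since the genes were picked with these results known, nothing is read from that count. It fell from 8 to 3 without mouse 11 (Csf1r, Ctss and Ltf), and to 5 without mouse 12 or without mouse 13. Over all 7235 genes, the calls fell from 1407 to 726, 1005 and 1032 without mouse 11, 12 and 13. Csf1r, Ctss and Ltf passed in each of these 3 refits, and Prtn3 passed in none of them.

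**Figure D1:**
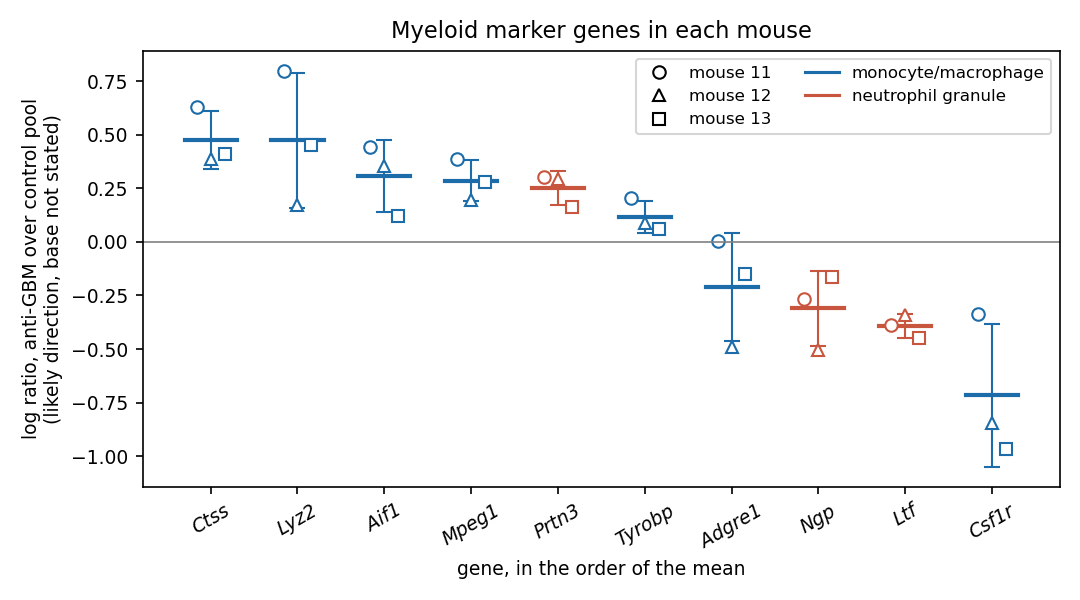
Log ratio of the anti-GBM kidney over the control pool (vertical axis, base not stated, likely direction) for each marker gene. Symbols are mice, horizontal bars are means and error bars are SD over 3 mice. Ctss and Lyz2 lie highest, Csf1r lies lowest, and mouse 11 is the highest mouse in all 7 monocyte and macrophage genes.

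Among the monocyte and macrophage genes, the highest were the enzymes of the lysosome and of bacterial killing. Ctss encodes cathepsin S, the lysosomal protease that trims the invariant chain of MHC class II. Its log ratio was 0.63 in mouse 11, 0.39 in mouse 12 and 0.41 in mouse 13, a mean of 0.48 ± 0.13, which is 1.39-fold for base 2 and 3.00-fold for base 10. All 3 mice were well above 0, and only 189 genes had a higher mean. The 2 Ctss rows had nearly the same mean, 0.48 ± 0.16 in row 11071 and 0.47 ± 0.15 in row 13600.

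Lyz2 encodes lysozyme, which cleaves bacterial cell walls and is made by macrophages and neutrophils alike. Its values were 0.80, 0.17 and 0.45 in mice 11, 12 and 13, with a mean of 0.47 ± 0.31. The mean equalled that of Ctss, but the spread was wider than that of 95.0% of genes, with mouse 12 far below mouse 11. Near-identical stretches of Lyz1 could bind the same probe, so the value may combine both lysozymes. Mpeg1, the pore-forming perforin-2 of phagocytes, was at 0.39, 0.20 and 0.28 in mice 11, 12 and 13, a mean of 0.29 ± 0.09. Its 3 mice lay close together and all above 0.

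Aif1 encodes Iba1, an actin-bundling protein of activated macrophages. Its gene values were 0.44, 0.36 and 0.12 in mice 11, 12 and 13, a mean of 0.31 ± 0.17, but its rows disagreed. Row 3330 was at 0.82, 0.74 and 0.09, while row 1322 was at 0.07, -0.02 and 0.15. The high value of Aif1 thus came from 1 of 2 rows and from mice 11 and 12. In mouse 13 the rows differed by little.

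Tyrobp encodes DAP12, the signalling adaptor of many myeloid receptors, which carries an immunoreceptor tyrosine-based activation motif (ITAM). It stayed nearer to 0, at 0.20, 0.09 and 0.06 in mice 11, 12 and 13, with a mean of 0.12 ± 0.07. Its 2 rows had means of 0.15 ± 0.13 and 0.08 ± 0.10, so neither row was far from 0. Adgre1 encodes F4/80, the classical surface marker of mouse macrophages. It was at 0.00 in mouse 11, -0.49 in mouse 12 and -0.15 in mouse 13, with a mean of -0.21 ± 0.25. The mean was below 0, with mouse 11 at the level of the pool and mouse 12 lowest.

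**Figure D2:**
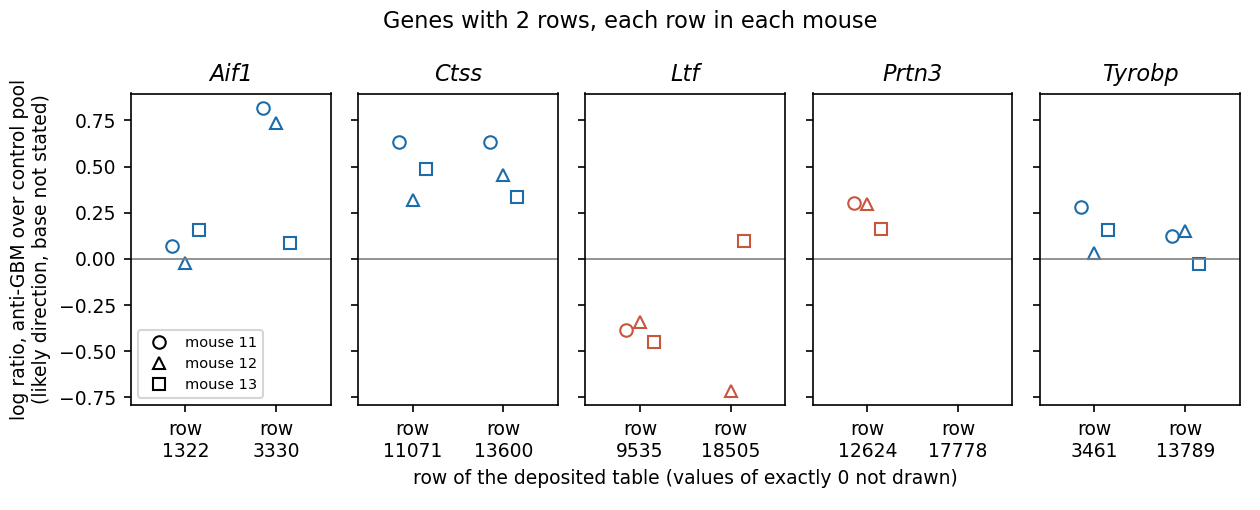
Centred log ratio (vertical axis, base not stated) of each table row of the 5 marker genes with 2 rows, with a symbol for each mouse. The Ctss rows lie at the same height, the Aif1 rows differ in mice 11 and 12, and row 18505 of Ltf and row 17778 of Prtn3 lack some or all values.

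Csf1r, the receptor tyrosine kinase for the growth factors CSF1 and IL-34, lay at the other end. It was at -0.34 in mouse 11, -0.85 in mouse 12 and -0.97 in mouse 13, a mean of -0.72 ± 0.33, which is 1.64-fold lower for base 2 and 5.20-fold lower for base 10. All 3 mice were below the pool, and only 56 of the 7235 genes had a lower mean. Its SD exceeded that of 96.0% of genes, because mouse 11 was less low than the others. Csf1r has a single row, so no further row could be set against it. Some stretches of the table are crowded with very low values, taken here as rows with at least 3 rows of mean below -1 within 100 row numbers. The row of Csf1r has none within that distance. With the local median of neighbouring rows subtracted the mean was -0.66 ± 0.34. Against the mean of the other 6 monocyte and macrophage genes in the same mouse, Csf1r was lower by 0.75 in mouse 11, 0.96 in mouse 12 and 1.16 in mouse 13.

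Of the granule genes, Ltf and Ngp were below 0 and Prtn3 was above it. Ltf encodes lactoferrin, an iron-binding protein of secondary granules. It was at -0.39, -0.34 and -0.45 in mice 11, 12 and 13, a mean of -0.39 ± 0.05, or 1.31-fold lower for base 2 and 2.47-fold lower for base 10. The mice were nearly equal, with an SD below that of most genes (13.8% of genes had a lower SD). The other Ltf row, 18505, was listed at 0 in mouse 11 and read -0.72 in mouse 12 and 0.10 in mouse 13, so it did not repeat the pattern of the full row.

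Ngp encodes neutrophilic granule protein, a cathelicidin-related protein of secondary granules. It was at -0.26, -0.50 and -0.17 in mice 11, 12 and 13, with a mean of -0.31 ± 0.17. It was below 0 in every mouse, lowest in mouse 12. Its row lies in a crowded stretch, with 18 rows of mean below -1 within 100 row numbers, and such stretches hold 7.06% of all full rows. Among the other members only row 13789 of Tyrobp has as many as 3 such neighbours, and the part of the stretches in these values was not tested. With the local median subtracted, the Ngp mean was -0.29 ± 0.22.

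Prtn3 encodes proteinase 3, a serine protease of primary granules and the target of autoantibodies in human vasculitis. Unlike Ltf and Ngp it was above 0, at 0.30, 0.30 and 0.16 in mice 11, 12 and 13, a mean of 0.25 ± 0.08. Prtn3 lay above Ltf and Ngp in each mouse. Its other row, 17778, was listed at 0 in every mouse, so the value rests on 1 row.

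**Figure D3:**
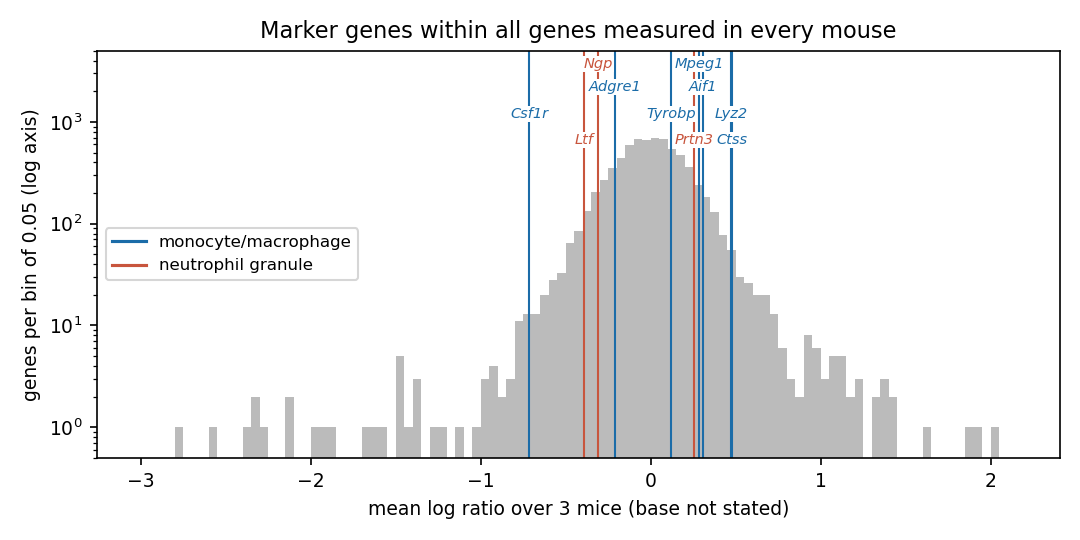
Histogram of the mean log ratio (horizontal axis, base not stated) of all 7235 genes, with the number of genes per bin on a log axis and a vertical line for each marker gene. Csf1r lies in the lower tail, Ctss and Lyz2 on the upper shoulder, and Tyrobp near the centre.

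Ordered by mean, the genes ran Ctss, Lyz2, Aif1, Mpeg1, Prtn3, Tyrobp, Adgre1, Ngp, Ltf and Csf1r. Most neighbours in this order were not separated beyond their spread. The ranges over mice did not overlap for 1 of the 9 neighbouring pairs, Tyrobp above Adgre1, with a difference within mice of 0.33 ± 0.22. Prtn3 was above Tyrobp in all 3 mice, by 0.14 ± 0.06, although their ranges overlapped. Ltf was above Csf1r in mice 12 and 13 but not in mouse 11, with a difference of 0.32 ± 0.32. The difference between Ctss and Lyz2 was 0.002 ± 0.20.

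Averaged by class, the monocyte and macrophage genes lay slightly above the granule genes. The mean over the 7 monocyte and macrophage genes was 0.30 in mouse 11, -0.02 in mouse 12 and 0.03 in mouse 13, or 0.11 ± 0.17. The mean over the 3 granule genes was -0.12, -0.18 and -0.15, or -0.15 ± 0.03. The difference was 0.42, 0.16 and 0.18 in mice 11, 12 and 13, a mean of 0.26 ± 0.14, and it was above 0 in every mouse. The median of all gene means was -0.001.

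The class difference depended on which genes stood in each class. It was 0.39 without Csf1r, 0.46 without Prtn3 and 0.17 without Ngp, and 0.48 when medians over genes replaced means. Of the 21 pairs of a monocyte or macrophage gene and a granule gene, the former was higher in all 3 mice in 12 pairs, in no mouse in 4 pairs, and in 1 or 2 mice in 5 pairs. Those 4 pairs were Csf1r with Ngp, and Csf1r, Adgre1 and Tyrobp with Prtn3. The classes therefore overlapped, with Csf1r below and Prtn3 above the rest of their class.

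**Figure D4:**
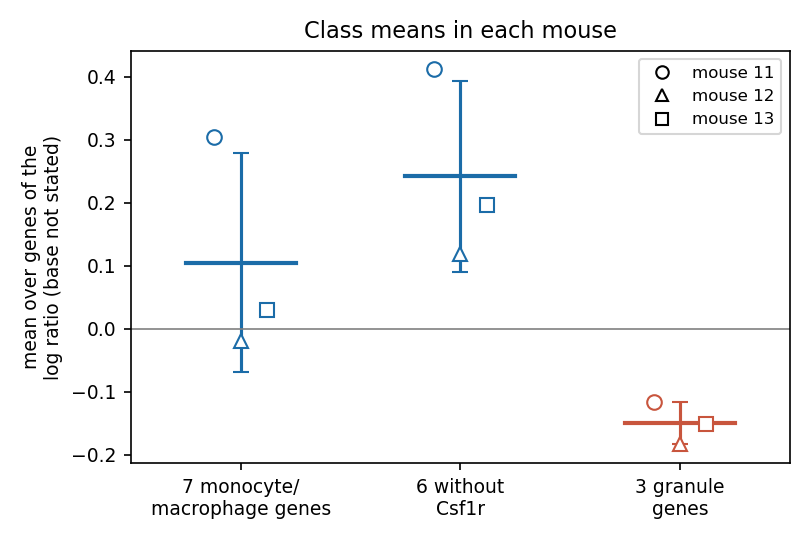
Mean log ratio over the genes of a class (vertical axis, base not stated) in each mouse, shown for all 7 monocyte and macrophage genes, for 6 of them without Csf1r, and for the 3 granule genes. Bars are means and error bars SD over 3 mice. The granule means of the mice lie between -0.18 and -0.12, while the monocyte means range from -0.02 to 0.30, with mouse 11 highest.

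Mouse 11 had the highest value of the 3 mice for all 7 monocyte and macrophage genes, also for those below 0. Among all genes mouse 11 was highest for 29.4%, and among 22 other macrophage and monocyte markers for 8 (36.4%). The 3 granule genes were highest in 3 different mice.

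Genes with the most similar values were looked up by Euclidean distance over the 3 mice, which with 3 arrays is only a description. Closest to Csf1r were Pcolce2 (mean -0.75, distance 0.16), the calcium buffer Pvalb (mean -0.77, distance 0.16) and the transcript named Xntrpc (mean -0.72, distance 0.19). Pvalb is a marker of the kidney's distal convoluted tubule. The tubule marker Slc12a3 lay on the other side of 0, at 0.15, 0.20 and 0.23 in mice 11, 12 and 13. Closest to Ctss were the glutathione transferase Gstt2 (mean 0.47, distance 0.06), the pteridine reductase Qdpr (mean 0.45, distance 0.07) and the class I gene H2-Q4 (mean 0.51, distance 0.08). Ltf was nearest to Gtpbp2 (mean -0.38, distance 0.02), the receptor Erbb4 (mean -0.38, distance 0.05) and 4921507P07Rik (mean -0.38, distance 0.05).

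Other genes of the same cells and pathways were taken from 12 lists without the 10 members. The lists hold 132 different genes measured in every mouse, of which 27 passed the limma test as higher and 12 as lower (29.5%, against 19.4% of all genes). Since the lists were chosen with earlier results of these data known, nothing is read from that share. Adjusted p-values below are from this limma fit over all 7235 genes, or from a refit where a left-out mouse or a subtracted local median is named. Beside each list count from this fit, the share over all genes was 9.48% higher and 9.97% lower. These shares do not apply to list counts from the refits. Over all genes, this fit made 1407 calls, and the refit with the local median subtracted made 1478. With each mouse left out, the calls ranged from 726 to 1032.

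Of 22 measured macrophage and monocyte markers, 4 were higher, 18 did not pass and 0 were lower, with a median of 0.10. Ms4a6c, a membrane protein of monocytes and macrophages, was at 0.81, 0.91 and 0.43 in mice 11, 12 and 13 (mean 0.72 ± 0.26, adjusted p = 0.00562). Fcgr1, the high-affinity IgG receptor, was at 0.65 ± 0.28 (adjusted p = 0.00883). The oxidase subunit Ncf4 (0.49 ± 0.30, adjusted p = 0.0256) and the Fc receptor chain Fcer1g (0.39 ± 0.29, adjusted p = 0.0457) also rose. Without mouse 11, Ncf4 no longer passed (adjusted p = 0.0953), nor did Fcer1g without mouse 11 or 12 (0.177 and 0.119), so that 2 markers passed without mouse 11. With mouse 12 or mouse 13 left out, the list had 5 calls. The complement genes C1qa (0.22 ± 0.21), C1qb (0.27 ± 0.26) and C1qc (0.17 ± 0.29) did not pass with all mice. C1qa and C1qc passed without mouse 12 (adjusted p = 0.0429 and 0.0428), and C1qb passed without mouse 13 (0.0241). The mannose receptor Mrc1 (-0.07 ± 0.25) and the sialic acid receptor Siglec1 (-0.19 ± 0.07) did not pass, and neither did the blood monocyte markers Ly6c2 (0.11 ± 0.20), Plac8 (-0.02 ± 0.06) and F13a1 (0.01 ± 0.11).

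Of 13 other neutrophil genes, 3 were higher, 10 did not pass and 0 were lower, with a median of -0.03. S100a9, a subunit of calprotectin, was at 1.63, 1.64 and 0.98 in mice 11, 12 and 13 (mean 1.42 ± 0.38, adjusted p = 0.0011). Its partner S100a8 was at 0.56 ± 0.06 (adjusted p = 0.00388), with rows at 1.12 and 0.01, and the leukocyte integrin chain Itgb2 at 0.44 ± 0.11 (adjusted p = 0.0105). The other measured primary granule genes did not pass, and the call of Prtn3 itself was lost whichever mouse was left out. The elastase Elane was at 0.08 ± 0.10, cathepsin G (Ctsg) at -0.11 ± 0.13 and myeloperoxidase (Mpo) at -0.10 ± 0.11. The collagenase Mmp8 of secondary granules was at 0.11 ± 0.07, the neutrophil surface protein Ly6g at -0.19 ± 0.15, and the chemokine receptor Cxcr2 at -0.19 ± 0.08. By their full rows, Ltf and Ngp were below 0 in the same kidneys in which S100a9 and row 1907 of S100a8 were above it.

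Around Csf1r, 4 of 7 measured genes of its ligands and signalling chain were higher and 2 were lower, with a median of 0.31. The ligand Il34, which tubule cells make, was at 0.50, 0.15 and 0.34 in mice 11, 12 and 13 (mean 0.33 ± 0.17, adjusted p = 0.0362), a call lost without mouse 11 or 13 (adjusted p = 0.229 and 0.0811). The ligand Csf1 was at -0.15 ± 0.02 and did not pass (adjusted p = 0.168). Downstream, Stat3 was at 0.57 ± 0.14 (adjusted p = 0.00536), the kinase subunit Pik3r1 at 0.48 ± 0.13 (adjusted p = 0.00829) and the adaptor Grb2 at 0.31 ± 0.09 (adjusted p = 0.0277). Row 7447 of Grb2 lies in a crowded stretch. The lower genes were Stat5a (-0.52 ± 0.28, adjusted p = 0.0196) and Stat5b (-0.35 ± 0.08, adjusted p = 0.0198). The row of Stat5b lies in a crowded stretch, and with the local median subtracted its mean was -0.22 and it did not pass (adjusted p = 0.0636). Without mouse 11, Stat5a, Stat5b and Grb2 no longer passed (adjusted p = 0.0655, 0.114 and 0.12). Grb2 lost it also without mouse 12 (0.0879), and Stat5b without mouse 13 (0.0505). Without mouse 11, 2 genes were higher and 0 lower. These signalling genes are expressed in most kidney cells, so their values do not report on macrophages alone.

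Of 8 partners of Tyrobp in ITAM signalling, 1 was higher (Fcer1g) and 1 lower. The lower gene was the kinase Btk (-2.14 ± 0.54, adjusted p = 0.000605), whose row lies in a crowded low stretch, and the part of the stretch in this value was not tested. The receptor Trem2 was at 0.13 ± 0.23 and the adaptor Hcst at -0.08 ± 0.17, neither past the test. With mouse 11 or 12 left out, Fcer1g no longer passed and Btk was the only call of this list.

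Myeloid transcription factors were higher for 4 of 15 measured genes and lower for 1, with a median of 0.11. The higher ones also respond to injury in other cells. They were Egr1 at 1.21 ± 0.22 (adjusted p = 0.000475), Nr4a1 at 0.78 ± 0.06 (adjusted p = 0.000977), Klf4 at 0.47 ± 0.13 (adjusted p = 0.00904) and Cebpb at 0.37 ± 0.20 (adjusted p = 0.0289). The row of Nr4a1 lies in a crowded stretch. Ets2 was lower (-0.41 ± 0.24, adjusted p = 0.0288). Cebpb lost its call without mouse 12 or 13 (adjusted p = 0.0782 and 0.0862), and Ets2 without mouse 11 or 13 (0.0567 and 0.0839). Irf8, a factor of monocyte and dendritic cell development, was at 0.48, 0.26 and 0.02 in mice 11, 12 and 13 and did not pass (mean 0.25 ± 0.23, adjusted p = 0.108). Without mouse 13 Irf8 passed as higher (0.0444).

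Among lysosomal genes related to Ctss, 4 of 16 were higher and 0 lower, with a median of 0.17. Cathepsin C (Ctsc), which activates granule proteases including proteinase 3, was at 0.46, 0.39 and 0.83 in mice 11, 12 and 13 (mean 0.56 ± 0.24, adjusted p = 0.0108). Cathepsin D (Ctsd) was at 0.39 ± 0.14 (adjusted p = 0.0187), the sterol carrier Npc2 at 0.38 ± 0.15 (adjusted p = 0.0216) and progranulin (Grn) at 0.30 ± 0.09 (adjusted p = 0.0304). The Grn rows differed, with means of 0.10, 0.22 and 0.59, and row 17611 of Npc2 lies in a crowded stretch. With any 1 mouse left out, 2 genes of the list passed, and Ctsc was 1 of them each time. Ctsd lost its call without mouse 12 or 13 (adjusted p = 0.0549 and 0.0506), Npc2 without mouse 11 or 13 (0.0582 and 0.0619) and Grn without mouse 11 or 12 (0.101 and 0.103). With the local median of neighbouring rows subtracted, 6 were higher. Tubule cells also express lysosomal genes.

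**Figure D5:**
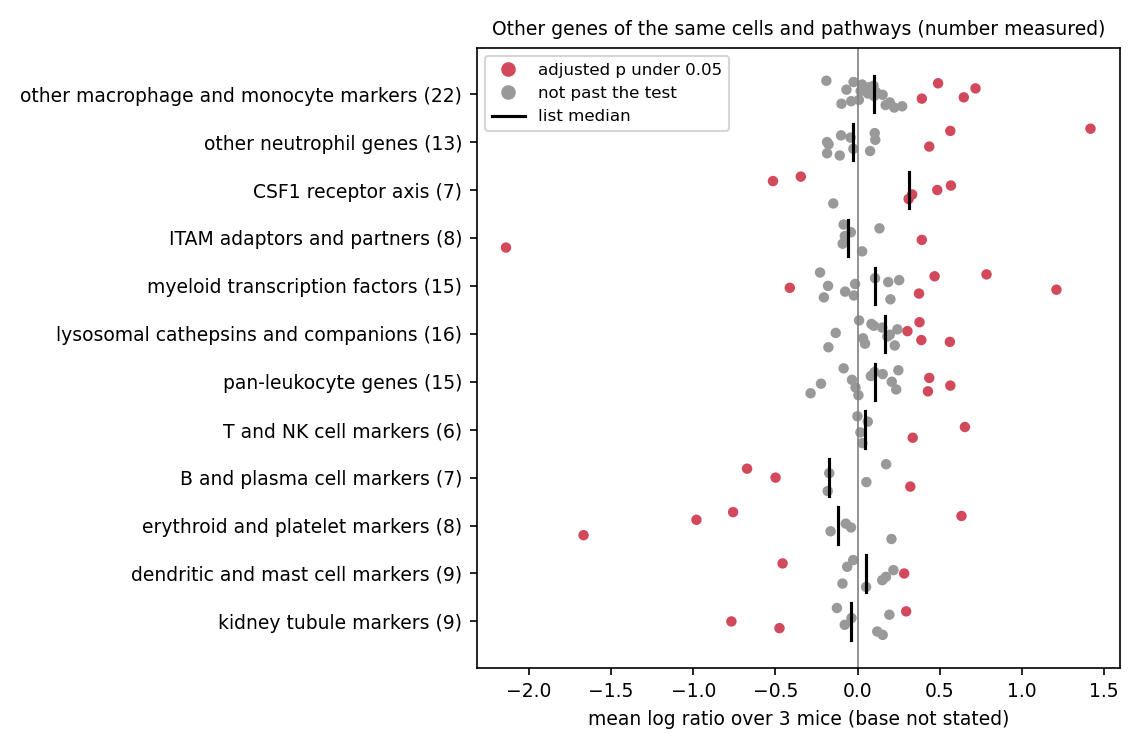
Mean log ratio over 3 mice (horizontal axis, base not stated) of every measured gene of the 12 lists, without the members. Red points passed the limma test at adjusted p under 0.05, grey points did not, and black ticks are list medians. S100a9 at 1.42 lies farthest right among the neutrophil genes and Btk at -2.14 farthest left among the ITAM partners.

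Markers shared by all white blood cells were higher for 3 of 15 genes and lower for 0, with a median of 0.10. They were the actin regulator Coro1a (0.56 ± 0.13, adjusted p = 0.00534), the surface protein Cd48 (0.43 ± 0.07, adjusted p = 0.00918) and Itgb2, and each passed with any 1 mouse left out. Cd37 was at 0.06, -0.70 and -0.23 in mice 11, 12 and 13, and passed as lower without mouse 11 (adjusted p = 0.0252). Cd52 passed as higher without mouse 13 (0.0416). The pan-leukocyte phosphatase Ptprc (CD45) was at 0.10 ± 0.06, and its full rows were at -0.21 and 0.42. Lists of markers of other cell types also held calls. Of 6 T and NK cell markers, 2 were higher and 0 lower (median 0.05), and of 7 B and plasma cell markers 1 was higher and 2 were lower (median -0.17). Erythroid and platelet markers were higher for 1 of 8 and lower for 3 (median -0.12), dendritic and mast cell markers higher for 1 of 9 and lower for 1 (median 0.05), and kidney tubule markers higher for 1 of 9 and lower for 2 (median -0.04). Calls that held with any 1 mouse left out were Gzma (0.65, T and NK cells) and Pf4 (0.63, platelets) as higher. Those held as lower were Jchain (-0.67) and Ighm (-0.50) of the B and plasma cell list. They also included the erythroid Car1 (-1.67), Klf1 (-0.98) and Slc4a1 (-0.76), and the tubule genes Pvalb (-0.77) and Calb1 (-0.48). In the same lists, the erythroid Alas2 (0.21) and the tubule gene Slc12a3 (0.19) were above 0 in every mouse. Neither passed, nor did the erythroid Gata1 (-0.16). The row of Car1 and a row of Calb1 lie in crowded stretches, and the full Ighm rows were at -1.32, -0.12 and -0.06. The tubule gene called higher, Slc22a6, lost its call with any 1 mouse left out (adjusted p = 0.113, 0.0679 and 0.0642 without mice 11, 12 and 13). Without mouse 11 or 12 no dendritic or mast cell marker passed, as Xcr1 (0.0596 and 0.0551) and H2-Ab1 (0.134 and 0.161) lost their calls. H2-Ab1 lost it also without mouse 13 (0.0504), where H2-Eb1 passed instead (0.0452). Cd4 lost its call without mouse 11 or 13 (0.101 and 0.0862), and Cd72 without mouse 11 (0.208). Medians of these lists ranged over mice from -0.33 for B and plasma cell markers in mouse 13 to 0.16 for T and NK cell markers in the same mouse. The part of such cells in the values of the 10 marker genes was not tested.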

How the data were processed

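The deposited series table gives 1 value per row and array for 3 two-colour arrays. Per the labels, Cy5 carried the RNA of an anti-GBM mouse and Cy3 that of the control pool. How the authors made the deposited log ratios (scanner, background, normalization) is not stated in the labels, and spot flags and brightness were not used here. A genome build, GRCm38.p6, was used only for the promoter windows. The deposited values have medians of 0.0077, 0.0105 and 0.01 on the 3 arrays without exact zeros, which are 33.1%, 33.7% and 29.5% of the values. Their log base and direction stay unknown, so values were left on the deposited scale.

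Of 16281 rows, 13738 name 1 gene in the platform annotation, 52 several and 2491 are not listed. Rows of 1 gene measured on all arrays were centred on each array's median and averaged per gene (7235 genes), then tested against 0 (R 4.3.3, limma 3.58.1, lmFit with an intercept followed by eBayes), with Benjamini-Hochberg adjusted p under 0.05. Python 3.11.15, pandas 2.3.3, numpy 2.4.6 and matplotlib 3.10.9 were used. The fit was tested on simulated data. Precision is limited by having 3 arrays. The p-values measure only the spread between these 3 mice.

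The 10 genes and the lists were chosen with earlier results of these data known. Genes named from a list were the 4 with the smallest p, together with 13 genes fixed by name and the 3 nearest to Csf1r, Ctss and Ltf. Other genes were named after their values were seen. A crowded stretch is a row with at least 3 other rows of mean below -1 within 100 row numbers. A local median is taken over 101 rows. Alternatives were no centring, other treatment of zeros, 1 row per gene, local medians, crowded rows left out, scaled arrays, each mouse left out, and genes left out of a class.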

Additional observations from a re-analysis of the deposited data

How the results depend on the processing

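The class difference of 0.26 stayed above 0 under every alternative run. Skipping the centring could not move it, since centring shifts both classes alike on an array. Leaving out crowded rows of mean below -1 could not move it either, since no member row was among them. It was 0.46 without Prtn3 and 0.48 with medians over genes. With each mouse left out it ranged from 0.17 to 0.30. No mean of the 10 genes changed sign, and 3 moved by more than 1 SD. These were Aif1 at 0.07 with 1 row per gene, and Ltf at -0.30 and Prtn3 at 0.12 with exact zeros kept as values. With zeros kept, limma called 1 gene against 1407, 50 rows against 1902 and 0 genes of the 12 lists against 39. At an unadjusted p under 0.05 it called 54 of 213 genes of the lists (25.4%) and 2394 of all 10698 genes (22.4%). Of the 10 marker genes, limma called 8 in the reported fit, 6 with 1 row per gene, 5 with the local median subtracted or with rows measured on 2 arrays added, and 0 with zeros kept, where 6 had an unadjusted p under 0.05. Keeping zeros adds rows at 0 on every array, and the cause was not tested. With each mouse left out, the calls ranged from 726 to 1032 genes, from 944 to 1445 rows, and from 26 to 34 genes of the lists. Leaving out all rows in crowded stretches, an alternative chosen after seeing the data, removed Ngp and gave a class difference of 0.18. No paired analysis was possible because the study has 1 group. Signal over background could not be used.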

Other observations

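Several classical markers of the same cells had values in only some mice and entered no comparison. The lysosomal macrophage marker Cd68 was listed at 0 in mice 11 and 12 and at 0.40 in mouse 13. Spi1, the gene of PU.1, was listed at 0 in the same mice and at 0.35 in mouse 13. The secondary granule genes Lcn2 and Camp showed the same gap, with 0.49 and -0.05 in mouse 13. These are deposited values without centring. For S100a9, a further row read 0.69 in mouse 11 and 0.56 in mouse 12 and was listed at 0 in mouse 13. Cebpe and Itgam had no row under these names.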
